A study of Homo sapiens and Mus musculus with 36 samples.

Results

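Hepa1-6 is a mouse liver tumour line, labelled as hepatocellular carcinoma. In it the gene Dot1l was edited with the guide sg1 or the guide sg2, and the controls carried the guide sgNeg2. The 6 libraries of this line were taken by their labels from the 36 of the series: 2 with sgNeg2, 2 with sg1 and 2 with sg2, so that 4 knockout libraries stood against 2 controls. The design text states that knockout cell lines were made to study how DOT1L acts on gene expression. All 3 groups were grown in the same serum-containing medium, and no drug or interferon treatment is given for this line. Neither the labels nor the design text say whether the knockout cells are clones or pools, or whether replicates are separate cultures. P-values therefore measure the spread between these libraries, which may be technical.

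DOT1L is the methyltransferase that modifies a lysine in the core of histone H3 on the bodies of transcribed genes. It works beside the transcription elongation machinery, which it reaches through the AF9 and AF10 family of partners, and it is best known as a dependency of leukaemias with MLL rearrangements. Hepatocytes secrete most plasma proteins, clear drugs and bile acids, and keep this programme through a network of transcription factors that includes HNF4A, FOXA2, HHEX and PROX1.

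The 6 libraries held 45026791 to 56743093 counts over 22673 gene symbols. Levels are given as CPM (counts per 1000000 after TMM scaling) and are compared only between libraries for the same gene. The root mean square log2 difference was 0.514 to 0.535 between a knockout and a control library, 0.396 to 0.437 between an sg1 and an sg2 library, and 0.390 to 0.428 within a guide. Replicates of a guide differed by more than counting noise (chi-square per degree of freedom 6.53 to 9.56), so none was counted as a duplicate. The sg1 replicate 2 library stood apart in a few structural RNAs. The ribosomal RNA precursor Rn45s took 2.22% of its counts against 0.297 to 0.400% elsewhere, and Rmrp reached 89.0 CPM against 0.203 to 8.11 CPM. Of 12 hepatocyte markers, 7 averaged at least 1 CPM, among them albumin, and Apoc3 had no count.

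Dot1l transcripts were lower in every edited library. They stood at 45.7 and 41.5 CPM with sgNeg2, at 16.1 and 16.7 CPM with sg1 and at 15.5 and 14.3 CPM with sg2, and the groups did not overlap. The change was -1.48 ± 0.08 on the log2 scale (SE; edgeR adjusted p = 5.23e-12), which left 35.9% of the control level by the ratio of means in CPM. The guides did not differ at Dot1l beyond their spread (sg2 minus sg1 -0.14 ± 0.09, adjusted p = 0.531). In bulk RNA a lower level in each cell and a smaller share of cells with the transcript cannot be told apart. Counts per gene do not show which transcripts still encode a working enzyme, and neither protein nor histone methylation was measured here.

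**Figure D1:**
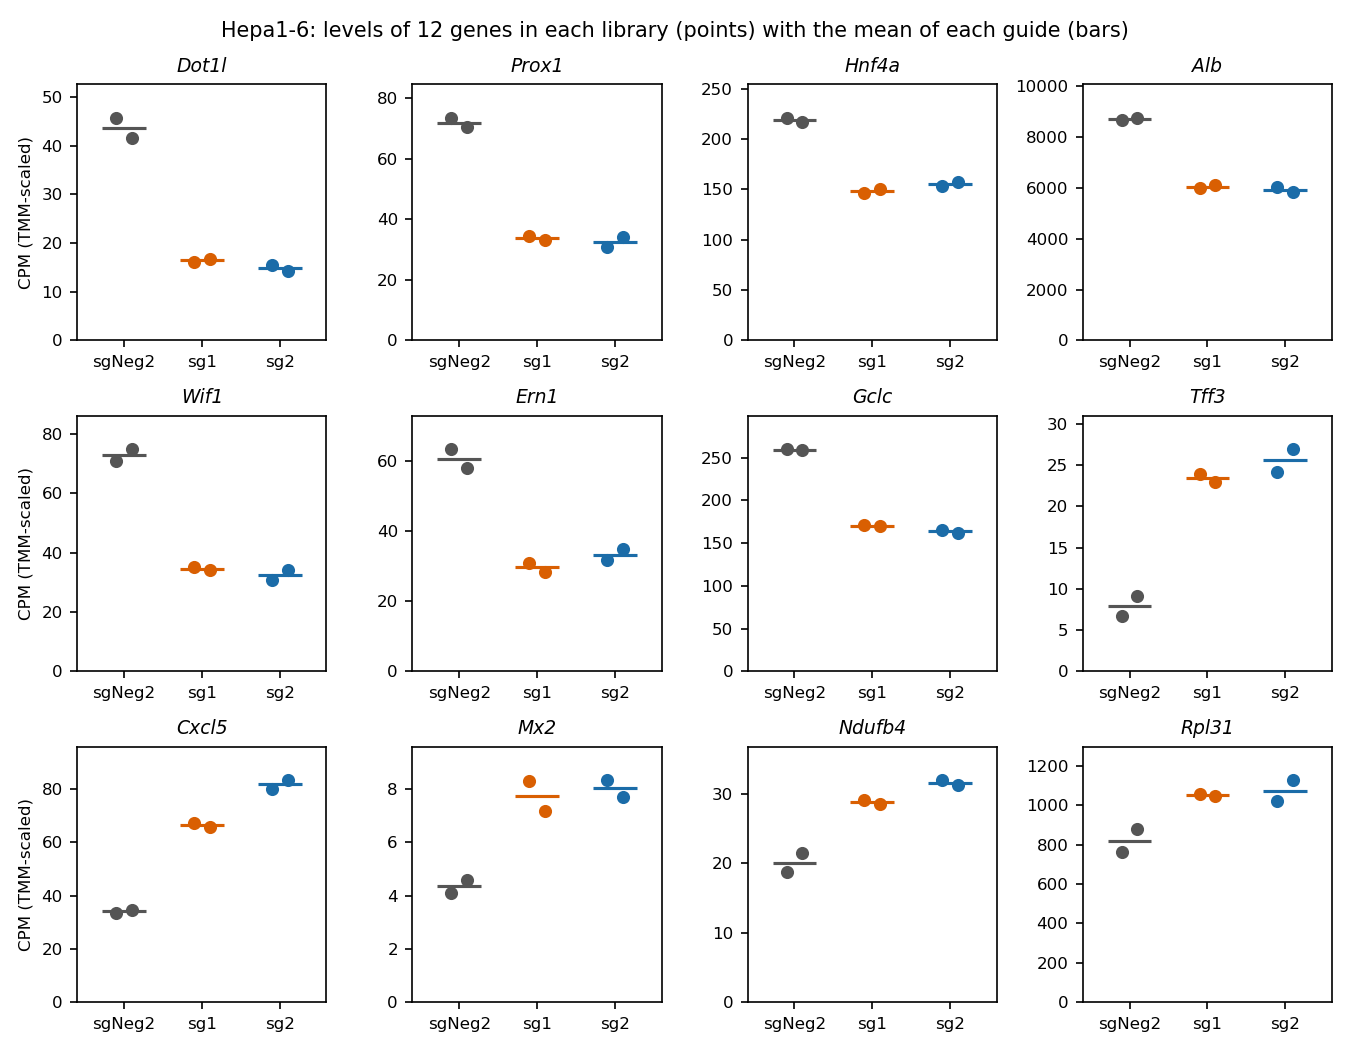
Levels in CPM (vertical axis from 0) of 12 genes in each Hepa1-6 library, with sgNeg2, sg1 and sg2 on the horizontal axis. Points are libraries and bars are the mean of each guide. In each panel the 4 knockout libraries lie to 1 side of the 2 controls, as for Dot1l at 14.3 to 16.7 CPM against 41.5 and 45.7 CPM.

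Many genes changed, and most changed little. Of 12493 genes tested, 1811 were called higher (14.5%) and 2284 lower (18.3%) at an adjusted p below 0.05, and the median size of a called change was 0.29 on the log2 scale. These shares are the background for the gene groups below, which were not matched to it by expression level. The share called lower was larger among genes at higher levels, as the next paragraph gives. At least 2-fold changes numbered 194 upward and 22 downward, and the median log2 change over all genes was 0.01, with 5th and 95th percentiles of -0.43 and 0.84. With 1 control library left the calls were fewer: 977 genes higher and 1404 lower without sgNeg2 replicate 1, and 1171 higher and 1679 lower without sgNeg2 replicate 2. Set side by side, sg1 gave 1730 higher (13.8%) and 2212 lower genes (17.7%), and sg2 gave 1859 (14.9%) and 2375 (19%), in comparisons that share the sgNeg2 libraries.

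The direction of change moved with expression level. Among genes averaging 100 CPM or more, 372 of 2005 were higher (18.6%) and 782 lower (39.0%). Between 1 and 5 CPM, 216 of 1503 were higher (14.4%) and 33 lower (2.196%). A gene passed the filter on low counts when 2 libraries were high enough, and 4 of the 6 libraries were knockouts, so low genes could pass more readily through the knockout group. Summed without any filter, the 5833 symbols averaging below 1 CPM held 681 and 729 CPM with sgNeg2, and 855 to 903 CPM in the knockout libraries. For 2004 symbols at 100 CPM or more the sums were 751590 and 758267 CPM against 715718 to 726604 CPM. In both classes the groups did not overlap.

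**Figure D2:**
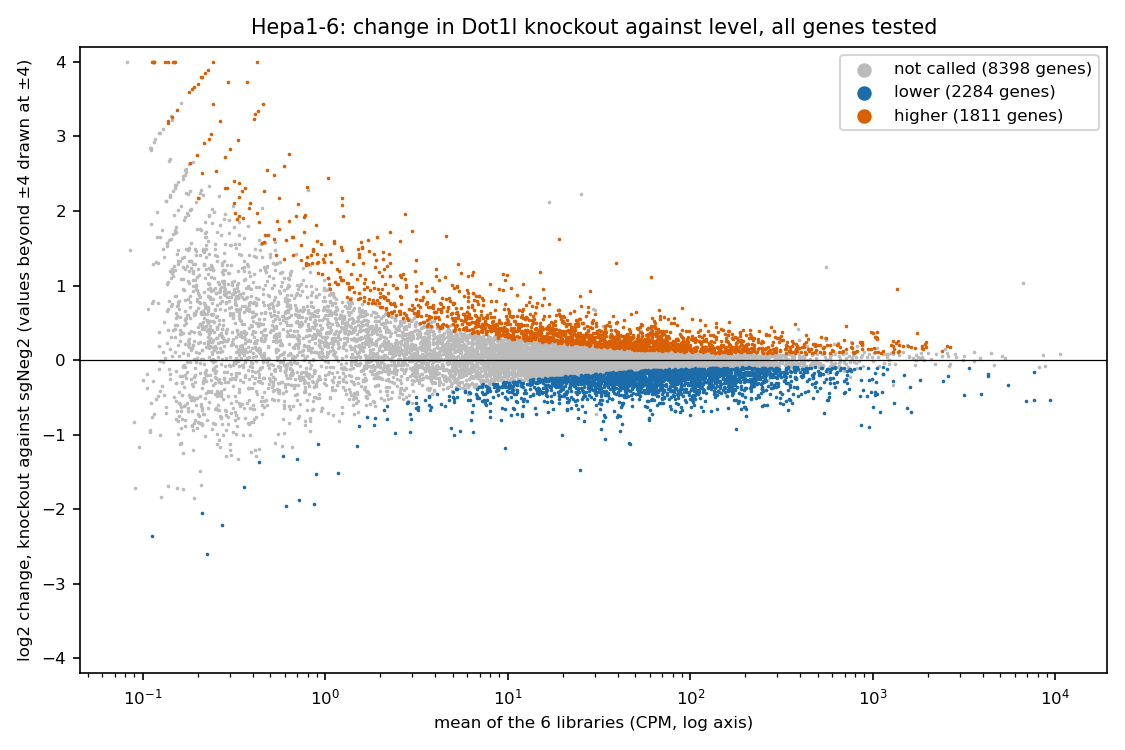
Each point is a tested gene, with its mean over the 6 libraries in CPM on a log axis and its log2 change in knockout against sgNeg2 on the vertical axis (1811 called higher in orange, 2284 called lower in blue, the rest grey; values beyond 4 are drawn at 4). Rises of more than 2-fold lie mostly at low levels, and falls crowd the range above 20 CPM.

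Several called genes had no count in either control library. There were 9 of them: Cytip, Gm9920, Ifitm1, Il24, Mtcl1, Slfn4, Tpsg1, Zscan4b and Zscan4d. These genes passed the filter on low counts only through the knockout libraries, so a rise was the only change they could show. Ifitm1, an interferon-induced membrane protein gene that restricts virus entry, held 71 counts over the knockout libraries, at least 12.4-fold higher than the limit that 3 counts over the controls would allow. Zscan4b and Zscan4d, members of a gene cluster known from early embryos, held 42 and 33 counts, at least 7.36-fold and 5.78-fold higher. The counts of these genes remained low, between 32 and 71 in all. Except for Ifitm1, each lost its call without either sgNeg2 library, and Gm9920 also without sg2 replicate 1. Zscan4 copies resemble each other closely, so the reads of each are uncertain.

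Among genes whose higher group averaged at least 5 CPM, the largest rises were those of Trib2, Tff3 and Ly6c1. Trib2 met that level only through the knockout libraries, as did Serpinb9b, Wfdc12, Fam129a, Camk2a, Arhgdib, Egflam and Rab3b below. Tff3 encodes a trefoil peptide of mucous epithelia. It stood at 6.72 and 9.18 CPM with sgNeg2, 23.97 and 22.9 CPM with sg1 and 24.2 and 27.0 CPM with sg2. This was a 3.08-fold rise of the mean (log2 1.63 ± 0.12, adjusted p = 3.59e-10), and the lowest knockout library was well above both controls. Trib2, a pseudokinase gene that acts on C/EBP proteins, went from 2.28 and 1.45 CPM to 4.85 to 7.05 CPM (log2 1.66 ± 0.20). Ly6c1, a surface antigen gene of monocytes and endothelium, rose from 18.2 and 21.1 CPM to between 43.2 and 54.6 CPM (log2 1.31 ± 0.09). The groups do not overlap in any of the largest rises and falls, because the rule took only such genes. Over all genes tested, the knockout libraries lay above both controls in 23.4% and below both in 25.2%.

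The rest of the 15 largest rises were of mixed function. They included Cxcl5 and S100a9, a neutrophil chemoattractant and a neutrophil calcium-binding protein, with log2 changes of 1.12 ± 0.11 and 1.07 ± 0.17. Secreted and matrix proteins were represented by Thbs2 (1.19 ± 0.11), Egflam (1.12 ± 0.17) and the antiprotease Wfdc12 (1.19 ± 0.14). Serpinb9b, a granzyme inhibitor family member, changed by 1.29 ± 0.16, and Mndal, of the interferon-inducible Ifi200 family, by 1.16 ± 0.13. Fam129a, Camk2a, Tmem45b, Arhgdib and Rab3b changed by 1.07 to 1.17. Serpinb9b, Mndal and Ly6c1 have close paralogs, among which reads could be split.

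The largest falls after Dot1l held liver regulators, a Wnt inhibitor and plasma protein genes. Prox1, a homeobox gene required for hepatocyte and lymphatic fate, stood at 73.5 and 70.3 CPM with sgNeg2, 34.4 and 33.1 CPM with sg1 and 30.8 and 34.2 CPM with sg2. Its log2 change was -1.12 ± 0.06 (adjusted p = 2.78e-12), and the knockout libraries lay below 35 CPM while the controls lay above 70 CPM. Wif1, which encodes a secreted protein that binds Wnt ligands, went from 70.8 and 75 CPM to 30.8 to 35.1 CPM (log2 -1.12 ± 0.06). Zbtb20, a repressor of alpha-fetoprotein in liver, went from 14.2 and 16.5 CPM to 5.50 to 8.05 CPM (log2 -1.18 ± 0.13). The knockout ranges stayed below the controls, which the rule for the largest falls required.

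Cyp1a1, the aryl hydrocarbon receptor target that oxidises polycyclic hydrocarbons, fell from 257 and 266 CPM to between 132 and 142 CPM (log2 -0.92 ± 0.04, adjusted p = 1.95e-13). Ern1, the endoplasmic reticulum stress sensor IRE1, fell from 63.5 and 58.0 CPM to between 28.5 and 34.8 CPM (log2 -0.95 ± 0.07). Igfbp1 and Itih2, secreted by hepatocytes, fell by 0.90 ± 0.14 and 0.87 ± 0.04. Igfbp1 lost its call without either sgNeg2 library, at -0.91 without replicate 1 and -0.89 without replicate 2. Tnr, Pcdhgc5, Pcdhgc4, Spp2, Tmem245 and Slitrk6 fell by 0.90 to 1.06. Aox3 fell by 1.01 ± 0.23, but was not called when sgNeg2 replicate 2 was left out (-0.84). Pcdhgc4 and Pcdhgc5 share constant exons, so their counts may not be separate.

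Many genes of DOT1L's partners and of the elongation machinery fell. Of 29 tested members of the complex and of elongation factors, 14 were lower and 3 higher, with a median of -0.15. Ccnt1, the cyclin of the elongation kinase P-TEFb, stood at 32.8 and 38.3 CPM with sgNeg2, 22.5 and 22.6 CPM with sg1 and 21.4 and 21.0 CPM with sg2 (log2 -0.70 ± 0.08, adjusted p = 3.13e-07). Kmt2a, which encodes MLL itself, went from 90.3 and 87.7 CPM to 56.8 to 61.5 CPM (log2 -0.58 ± 0.05), and the super elongation complex scaffold Aff1 changed by the same amount, -0.58 ± 0.05. Mllt3, which encodes the DOT1L partner AF9, was higher (6.83 and 8.48 CPM against 9.61 to 11.6 CPM), a call lost without sgNeg2 replicate 1 (0.30). Without that library 9 members were called lower, and without sg1 replicate 2, 5 were called higher.

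Of 41 tested histone methyltransferase and demethylase genes, 25 were lower and none was called higher, against 18.3% and 14.5% of all genes (median -0.18). Kmt2c, a methyltransferase of enhancers, went from 27.8 and 31.5 CPM to 18.5 to 21.999 CPM (log2 -0.55 ± 0.08, adjusted p = 2.78e-05). Ash1l and Prdm2 changed by -0.40 ± 0.06 and -0.41 ± 0.06. Ezh2, the catalytic subunit of Polycomb repressive complex PRC2, gave 40.2 and 41.1 CPM against 38.5 to 39.8 CPM (adjusted p = 0.481). The count of lower members was 16 without sgNeg2 replicate 1 and 13 without sgNeg2 replicate 2. Among 17 DNA methylation genes 2 were higher and 3 lower (median -0.04), both shares below those of all genes. Dnmt1, the maintenance methyltransferase, fell from 118 and 109.8 CPM to between 90.3 and 101 CPM, and Dnmt3b, a de novo methyltransferase, rose from 3.51 and 3.30 CPM to between 5.26 and 6.26 CPM.

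Genes that MLL-rearranged leukaemias hold active through DOT1L were mostly at low levels here. Of 20 listed, 11 were tested, of which 3 were lower (1 without either sgNeg2 library) and 1 higher, with a median of 0.01. Pbx3, a homeobox cofactor, went from 46.5 and 46.9 CPM to 26.9 to 28.9 CPM (log2 -0.76 ± 0.06, adjusted p = 3.84e-09). The leukaemia genes Hoxa9 and Meis1 gave 0.263 to 0.922 CPM and 1.41 to 3.13 CPM over the 6 libraries, with overlapping groups and adjusted p-values of 0.68 and 0.139. The calls of Bcl2 (higher), Runx2 and Jmjd1c (both lower) were each lost without either sgNeg2 library, and those of Bcl2 and Runx2 also without sg1 replicate 2 or sg2 replicate 2. Bcl2 was not called without sg2 replicate 1 either.

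Many hepatocyte transcription factors fell. Of 27 tested, 12 were called lower and none was called higher (median -0.19, against 0.01 over all genes). Hnf4a, the nuclear receptor at the centre of the hepatocyte network, stood at 221 and 217 CPM with sgNeg2, 146 and 150.04 CPM with sg1 and 153 and 157 CPM with sg2. This was a fall of 30.8% in the mean (log2 -0.53 ± 0.04, adjusted p = 2.48e-10), with no overlap between groups. Hhex, needed for liver bud outgrowth, went from 175 and 172 CPM to 102 to 116 CPM (log2 -0.69 ± 0.04). Foxa2 and Nr5a2, a pioneer factor and a nuclear receptor of bile acid synthesis, changed by -0.58 ± 0.04 and -0.56 ± 0.09.

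Other members of this network gave no call. Cebpa, a C/EBP factor of mature hepatocytes, gave 77.3 and 75.4 CPM with sgNeg2 against 70.7 to 80.4 CPM (adjusted p = 0.552). Foxa1, the paralog of Foxa2, gave 7.93 and 7.16 CPM against 6.63 to 8.19 CPM (adjusted p = 0.783). Cebpb, an acute phase factor, was uneven within guides, at 105 and 54.6 CPM with sgNeg2, at 107 and 46.8 CPM with sg1 and at 51.7 and 51.9 CPM with sg2. The fall of Onecut1 from 5.01 ± 1.01 to 3.14 ± 0.42 CPM (SD, n = 2 and 4) was not called without sgNeg2 replicate 2 (-0.45).

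Among secreted liver products falls outnumbered rises. Of 31 tested plasma carriers and protease inhibitors 10 were lower and 3 higher (median -0.23). The 3 higher ones lost their calls without sgNeg2 replicate 1. Alb, albumin, stood at 8690 and 8759 CPM with sgNeg2, 5992 and 6101 CPM with sg1 and 6035 and 5835 CPM with sg2 (log2 -0.54 ± 0.03, adjusted p = 2.11e-11). Trf, the iron carrier transferrin, went from 11763 and 11736 CPM to 8003 to 8246 CPM (log2 -0.53 ± 0.03). Replicates of a guide lay within a few percent of each other in both genes, and the fall from control was near 31% (31.3% and 30.8%). Ttr, which carries thyroid hormone, gave 4.35 to 5.65 CPM in all libraries and no call (adjusted p = 0.924).

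Coagulation genes were called in both directions, and complement genes held more falls than rises. Of 18 tested coagulation genes 5 were lower (27.8%) and 4 higher (22.2%). Of 19 complement genes 7 were lower (36.8%) and 1 higher (5.26%), against 18.3% and 14.5% of all genes. The fibrinogen chains moved apart: Fgb went from 2015 and 2022 CPM to 1212 to 1400 CPM (log2 -0.64 ± 0.05), while Fgg went from 5.72 and 5.11 CPM to 7.38 to 11.4 CPM (0.80 ± 0.18). Fgg lost its call without sgNeg2 replicate 2 (0.72), and the coagulation genes called higher numbered 1 without sgNeg2 replicate 1 and 2 without sgNeg2 replicate 2 or sg2 replicate 2. C3, the central complement component, went from 3885 and 3846 CPM to 2731 to 2858 CPM (log2 -0.47 ± 0.03, adjusted p = 4.39e-10). The complement genes called lower numbered 4 without sgNeg2 replicate 1 and 4 without sgNeg2 replicate 2.

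Lipoprotein genes and transporters also held more falls than rises. Of 21 apolipoprotein and lipoprotein assembly genes 8 were lower and 1 higher (median -0.23). Lrp1, an endocytic receptor for lipoprotein remnants, went from 1475 and 1464 CPM to 883 to 940.4 CPM (log2 -0.70 ± 0.03), and Abca1, the cholesterol exporter that loads HDL, from 103 and 104 CPM to 63.0 to 68.8 CPM (log2 -0.65 ± 0.05). The fall of Apob (-0.56) lost its call without either sgNeg2 library (-0.51 and -0.60) and without sg1 replicate 2 (-0.52). Of 21 bile acid and organic ion transporters 11 were lower and 2 higher (median -0.25). Abcc2, the canalicular exporter of conjugates, went from 594 and 582 CPM to 408 to 416 CPM, and Abcc4 from 324 and 315 CPM to 206 to 212 CPM (log2 -0.51 ± 0.03 and -0.61 ± 0.03).

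Drug-clearing enzymes moved both ways. Of 63 conjugating and reducing enzymes 21 were lower and 12 higher (median -0.07), though 4 were called higher without sgNeg2 replicate 1 and 5 without sgNeg2 replicate 2. Gstm1, a glutathione transferase with close paralogs, went from 2162 and 2193 CPM to 1233 to 1453 CPM (log2 -0.69 ± 0.06), and Aldh1a1, which oxidises retinal, from 1667 and 1671 CPM to 1089 to 1149 CPM (log2 -0.57 ± 0.03). Adh1, an alcohol dehydrogenase, rose from 1.04 and 0.809 CPM to between 3.31 and 3.80 CPM (log2 1.96 ± 0.23, adjusted p = 6.11e-07). Of 23 tested cytochrome P450 genes 6 were higher and 5 lower, with 34 more below the filter. Cyp2s1, an extrahepatic form, rose from 448 and 450.3 CPM to between 544 and 578 CPM. Of 26 amino acid, urea and gluconeogenic enzymes 4 were lower and 3 higher, both shares below those of all genes. Tat, tyrosine aminotransferase, went from 84.9 and 81.6 CPM to 46.9 to 55.8 CPM (log2 -0.72 ± 0.06). Without either sgNeg2 library 3 P450 genes and 2 of the amino acid enzymes were called lower, and without replicate 2 of sgNeg2 3 P450 genes were called higher.

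Fetal and biliary genes did not move as a block. Of 20 tested oncofetal and progenitor genes 7 were higher and 2 lower (median 0.19). Afp, alpha-fetoprotein, fell from 6299 and 6423 CPM to between 4953 and 5162 CPM (log2 -0.33 ± 0.03), and Gpc3, glypican-3 of liver tumours, from 851 and 824 CPM to between 599.8 and 633 CPM (log2 -0.44 ± 0.03). The biliary keratin Krt19 rose from 1177 and 1186 CPM to between 1318 and 1397 CPM, and Krt7 from 515 and 508 CPM to between 574 and 614 CPM (log2 0.19 ± 0.03 and 0.20 ± 0.04). Spp1, osteopontin, rose from 108 and 109 CPM to between 127 and 152 CPM.

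**Figure D3:**
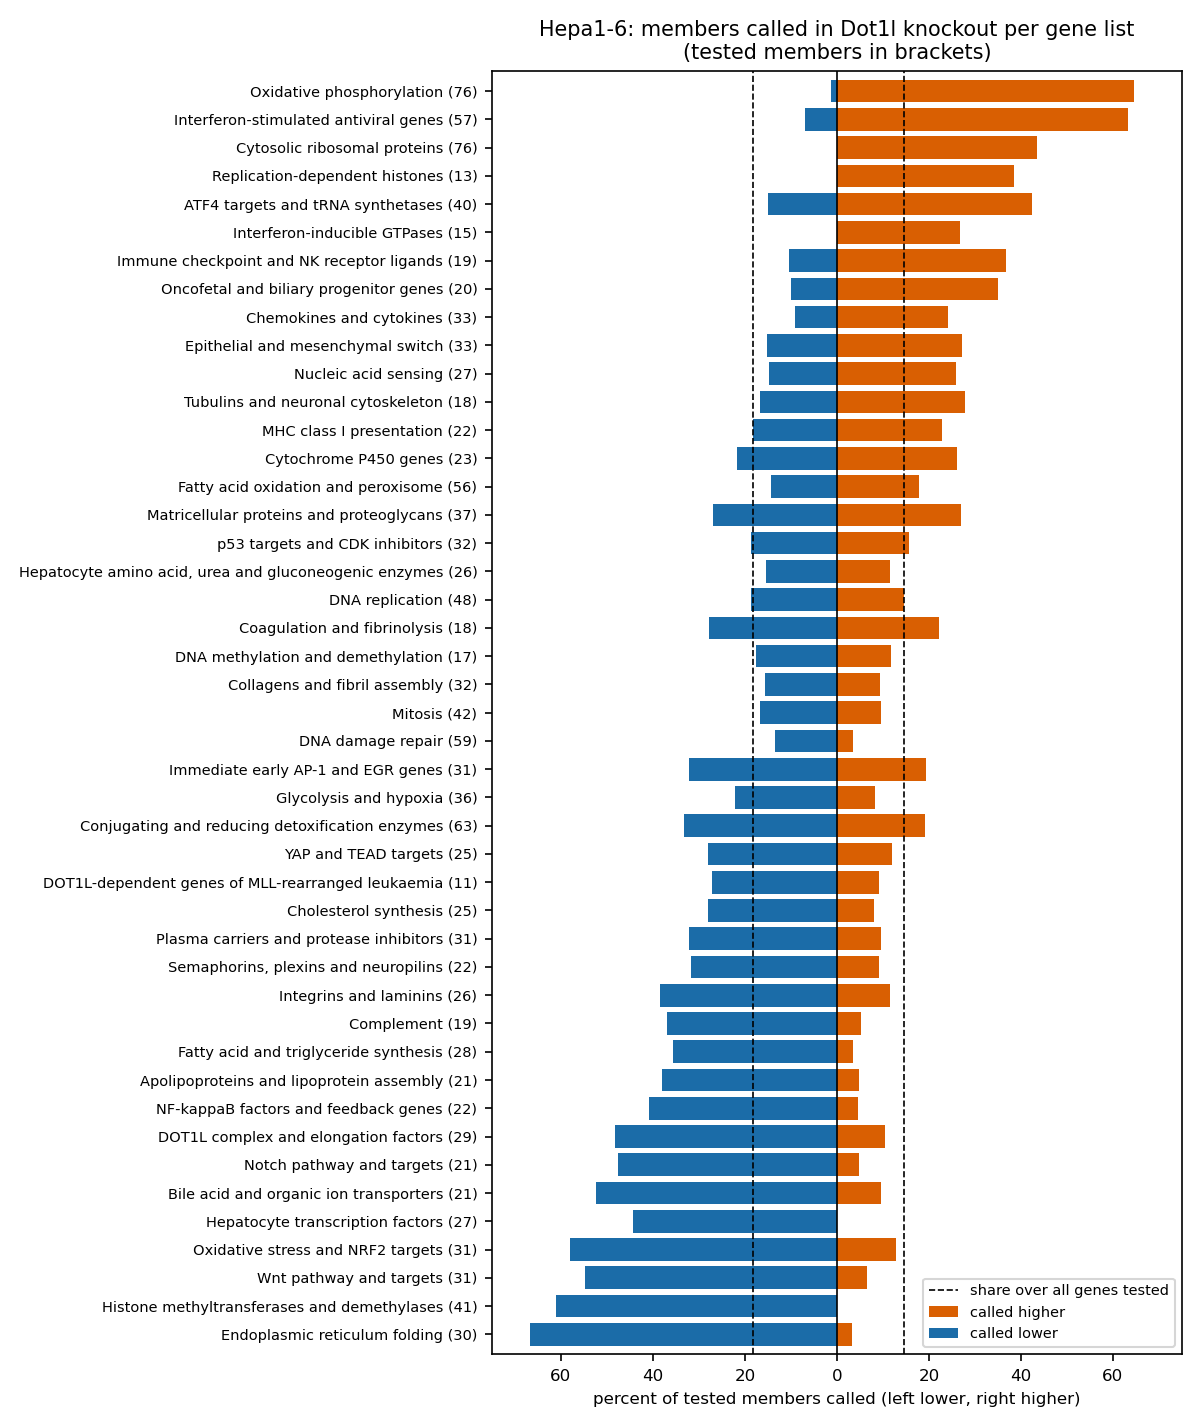
Percent of tested members called higher (right, orange) and lower (left, blue) in 45 gene lists, with the number tested in brackets. Dashed lines mark 14.5% higher and 18.3% lower over all genes. Oxidative phosphorylation and antiviral genes reach furthest to the right, and endoplasmic reticulum folding genes and histone methyltransferases furthest to the left.

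Most genes of the respiratory chain rose, each by little. Of 76 tested oxidative phosphorylation genes 49 were higher and 1 was lower (median 0.19). Ndufb4, a complex I subunit, stood at 18.7 and 21.5 CPM with sgNeg2, 29.1 and 28.6 CPM with sg1 and 32.0 and 31.3 CPM with sg2 (log2 0.59 ± 0.08, adjusted p = 6.95e-06). Uqcrq of complex III went from 109 and 108 CPM to 147 to 159.6 CPM (log2 0.50 ± 0.04), and cytochrome c, Cycs, from 92.8 and 98.2 CPM to 126 to 139.6 CPM (log2 0.47 ± 0.05). The member called lower was Sdha, the large catalytic subunit of complex II (257 and 262 CPM against 232 to 241 CPM). The members called higher were 28 when sgNeg2 replicate 1 was left out.

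Many cytosolic ribosomal protein genes rose by small steps as well. Of 76 tested, 33 were higher and none was called lower (median 0.13), and Rps27a went from 817 and 867 CPM to 1052 to 1127 CPM (log2 0.37 ± 0.04, adjusted p = 1.07e-07). Rpl31 went from 760.2 and 876 CPM to 1018 to 1128 CPM, a call lost with each guide taken alone (0.36 and 0.39). The number called higher was 13 without sgNeg2 replicate 1, and 18 with sg2 alone. Processed pseudogenes of ribosomal proteins are common, so the reads of each gene are uncertain.

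Genes of lipid synthesis held more falls than rises. The shares called lower and higher were 35.7% and 3.57% for fatty acid and triglyceride synthesis, and 28% and 8% for cholesterol synthesis. Over all genes they were 18.3% and 14.5%. Of 28 genes of fatty acid and triglyceride synthesis 10 were lower and 1 higher, and Acaca, which makes malonyl-CoA, went from 88.9 and 83.0 CPM to 56.3 to 60.04 CPM (log2 -0.58 ± 0.05). Of 25 cholesterol synthesis genes 7 were lower (4 without sgNeg2 replicate 1) and 2 higher. Of 56 genes of fatty acid oxidation and peroxisomes 10 were higher and 8 lower, a share near the background in each direction. Acsl1, which activates fatty acids, fell by 0.63 ± 0.04. Without sgNeg2 replicate 1, 4 of these genes were called higher, and without sgNeg2 replicate 2, 6 were called higher and 5 lower.

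Of 36 glycolysis and hypoxia genes 8 were lower (22.2%) and 3 higher (8.33%), against 18.3% and 14.5% of all genes (median -0.01). Gapdh, often used as a reference gene, was among the higher ones, at 800.1 and 868 CPM with sgNeg2, 1412 and 1814 CPM with sg1 and 1640 and 1602 CPM with sg2 (log2 0.96 ± 0.11, adjusted p = 0.00245). The groups did not overlap. Its call was lost with sg1 alone (0.95), and it has many near-identical pseudogenes, so its count is uncertain. Aldoa, the preceding step of glycolysis, stood at 8301 and 8164 CPM against 7099 to 7733 CPM (log2 -0.15 ± 0.04), a call lost without sgNeg2 replicate 1 (-0.14). Without sgNeg2 replicate 1 the list had 1 member called higher and 4 lower, without sgNeg2 replicate 2 it had 5 lower, and without sg1 replicate 2 it had 6 higher.

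Most folding genes of the endoplasmic reticulum fell. Of 30 tested, 20 were lower and 1 higher (median -0.15). Beside Ern1, the chaperone Hyou1 went from 299.8 and 289 CPM to 214 to 239.8 CPM (log2 -0.39 ± 0.04, adjusted p = 2.57e-07), and Hspa5, the chaperone BiP, from 1613 and 1618 CPM to 1384 to 1445 CPM (log2 -0.20 ± 0.03). The range of the members was from -0.95 to 0.99, and the member at 0.99 was not called.

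Most oxidative stress genes under the factor NRF2 fell too. Of 31 tested, 18 were lower and 4 higher (median -0.17). Gclc and Gclm, the 2 subunits of the enzyme that limits glutathione synthesis, stood at 260 and 259 CPM and at 340 and 313 CPM with sgNeg2. The knockout libraries held 162 to 171 CPM of Gclc (log2 -0.63 ± 0.04) and 201 to 230 CPM of Gclm (-0.60 ± 0.05). Slc7a11, the cystine importer, went from 209 and 212 CPM to 122 to 149 CPM (log2 -0.64 ± 0.09), and Hmox1, heme oxygenase 1, from 441 and 451 CPM to 302 to 346 CPM (log2 -0.45 ± 0.05). Nfe2l2, which encodes NRF2, fell by 0.35 ± 0.04, and its inhibitor Keap1 by 0.21 ± 0.05.

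Genes of the amino acid response held more rises than falls. Of 40 ATF4 targets and tRNA synthetases 17 were higher and 6 lower (median 0.08). Atf4 went from 136 and 137 CPM to 165 to 176 CPM (log2 0.33 ± 0.04, adjusted p = 4.02e-07), its target pseudokinase Trib3 from 123 and 124 CPM to 154 to 174 CPM (0.41 ± 0.05), and Mthfd2, of mitochondrial folate metabolism, from 15.9 and 16.6 CPM to 22.7 to 24.6 CPM (0.54 ± 0.08). Slc7a11, also an ATF4 target, was among the 6 lower. Ddit3, the stress factor CHOP, gave 92.8 and 97.1 CPM with sgNeg2, 99.6 and 105 CPM with sg1 and 74.2 and 76.2 CPM with sg2. Without sgNeg2 replicate 1 the members called higher were 9, and without sgNeg2 replicate 2 they were 10.

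**Figure D4:**
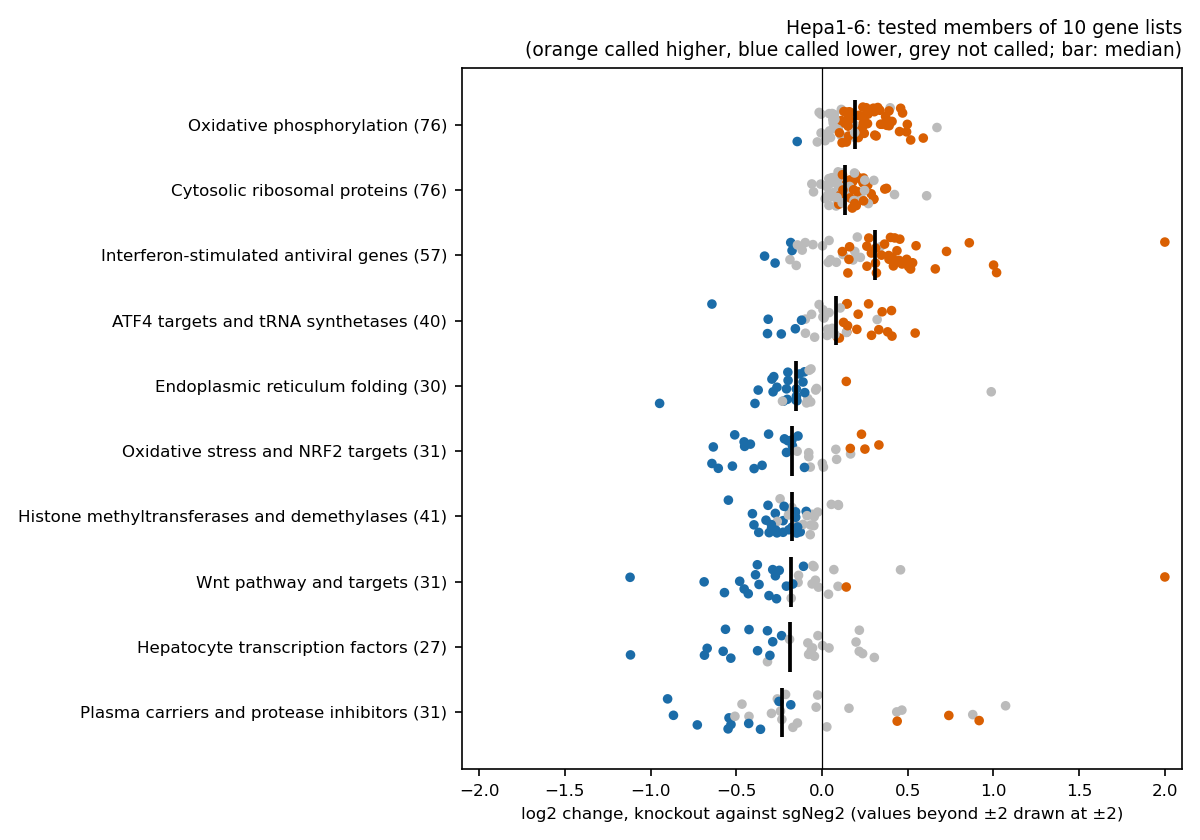
Log2 change in knockout of each tested member of 10 gene lists (points, orange called higher, blue called lower, grey not called), with the list's median as a bar; values beyond 2 are drawn at 2. Oxidative phosphorylation and ribosomal protein genes lie in narrow bands with medians of 0.19 and 0.13, and antiviral genes spread further around a median of 0.31.

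Most antiviral genes that interferon induces were higher, with no interferon treatment stated. Of 57 tested, 36 were higher and 4 lower, against 14.5% and 18.3% of all genes, with a median of 0.31. Mx2, a dynamin-like restriction factor, stood at 4.08 and 4.60 CPM with sgNeg2, 8.27 and 7.17 CPM with sg1 and 8.33 and 7.69 CPM with sg2 (log2 0.86 ± 0.14, adjusted p = 4.24e-05). Isg15, a ubiquitin-like modifier, went from 21.4 and 24.1 CPM to 30.7 to 33.9 CPM (0.51 ± 0.08), and Irf7, the factor that amplifies the response, from 160.0 and 161 CPM to 204 to 221 CPM (0.40 ± 0.04). In each of these genes the lowest knockout library was above the higher control.

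The members called lower were Znfx1, Helz2, Trim25 and Lgals3bp, by 0.17 to 0.33, and Lgals3bp lost its call without sgNeg2 replicate 1 (-0.149). The number called higher was 24 without sgNeg2 replicate 1 and 23 when the 18 mouse libraries were fitted jointly. Transcripts of the interferon ligands were close to absent: 21 alpha, beta, lambda and other interferon genes together held 1 and 18 counts with sgNeg2 and 10 to 24 counts in the knockout libraries, and 14 of them had none. This set was chosen after its values were seen. Ifnar1, the type I receptor, gave 72.4 and 66.8 CPM against 66.0 to 69.8 CPM (adjusted p = 0.521).

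Other immune groups moved in part. Of 15 interferon-inducible GTPases 4 were higher (26.7%) and none was called lower (median 0.03). Gbp3 went from 2.93 and 2.98 CPM to 5.65 to 6.31 CPM (log2 1.01 ± 0.15), and Irgm1 from 70.2 and 75.8 CPM to 86.0 to 90.5 CPM (0.27 ± 0.05). In the joint fit 2 of the GTPases were called higher. Of 27 genes of nucleic acid sensing 7 were higher (25.9%) and 4 lower (14.8%), against 14.5% and 18.3% of all genes. The Ifi200 gene Ifi204, with close paralogs, went from 5.36 and 5.601 CPM to 9.83 to 11.05 CPM (0.95 ± 0.12), and Zbp1, a sensor of left-handed nucleic acid, from 14.1 and 13.7 CPM to 18.6 to 20.8 CPM (0.50 ± 0.09). The RNA sensor Ddx58, RIG-I, gave 76.5 and 75.6 CPM against 75.9 to 80.2 CPM (adjusted p = 0.499), and Irf1 was lower, by 0.31 ± 0.04. The sensing genes called numbered 4 higher and 2 lower without sgNeg2 replicate 1.

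Antigen presentation genes were called in both directions. Of 22 class I genes 5 were higher (22.7%, against 14.5% of all genes) and 4 lower (18.2%, against 18.3%), with a median of -0.04. The immunoproteasome subunit Psmb8 went from 55.4 and 61.2 CPM to 69.8 to 76.5 CPM (log2 0.33 ± 0.05), and the peptide transporter Tap2 from 24.2 and 23.9 CPM to 28.6 to 32.3 CPM (0.32 ± 0.08). B2m, the light chain of class I molecules, gave 848 and 874 CPM with sgNeg2, 859 and 859.8 CPM with sg1 and 715 and 766 CPM with sg2. With the guides pooled it was not called (adjusted p = 0.374). It was called lower with sg2 alone (-0.22), with guides as groups (-0.11) and with no filter on low counts (-0.11). The class I genes called higher were 2 without sgNeg2 replicate 1 and 3 in the joint fit.

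The neutrophil chemokine genes Cxcl5 and Cxcl1 rose. Of 33 tested chemokine and cytokine genes 8 were higher (24.2%) and 3 lower (9.09%), against 14.5% and 18.3% of all genes (median 0.16). Cxcl5 stood at 33.5 and 34.6 CPM with sgNeg2, 67.2 and 65.6 CPM with sg1 and 80.05 and 83.4 CPM with sg2 (log2 1.12 ± 0.11, adjusted p = 5.49e-05). Its relative Cxcl1 went from 10.6 and 8.82 CPM to 13.4 to 17.7 CPM (0.63 ± 0.12), and Cxcl10, which attracts T cells, from 43.7 and 44.8 CPM to 53.5 to 57.3 CPM (0.32 ± 0.05). Ccl5, another T cell chemokine, went from 14.2 and 12.8 CPM to 8.47 to 11.1 CPM (-0.42 ± 0.11), a call lost without sgNeg2 replicate 1 (-0.35). Of 22 NF-kappaB factors and feedback genes 9 were lower and 1 higher, with 2 lower without sgNeg2 replicate 1 and 4 without sgNeg2 replicate 2. Nfkb2 went from 142 and 139 CPM to 113 to 122 CPM (-0.26 ± 0.04).

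Of 19 tested ligands of checkpoint and natural killer cell receptors 7 were higher (36.8%) and 2 lower (10.5%). Over all genes 14.5% were higher and 18.3% lower, and the median of the list was 0.20. Vtcn1, the inhibitory ligand B7-H4, went from 1.74 and 1.597 CPM to 3.73 to 4.001 CPM (log2 1.19 ± 0.19, adjusted p = 5.23e-05). The antiphagocytic ligand Cd47 went from 80.02 and 82.2 CPM to 93.1 to 102 CPM, and the TIGIT ligand Pvr from 143 and 143 CPM to 163 to 176 CPM. Cd274, PD-L1, gave 2.95 and 4.28 CPM against 3.39 to 4.62 CPM, with overlapping groups and no call (adjusted p = 0.357).

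Several receptors and inhibitors of Wnt signalling fell. Of 31 tested pathway genes and targets 17 were lower and 2 higher (median -0.18). Beside Wif1, the receptor-removing ligase Rnf43 went from 158 and 155 CPM to 94.9 to 99.5 CPM (log2 -0.69 ± 0.04, adjusted p = 1.11e-11). Lgr5, the R-spondin receptor of stem cells, went from 81.5 and 79.5 CPM to 53.6 to 63.7 CPM (-0.48 ± 0.06), and the receptor Fzd4 from 54.3 and 54.6 CPM to 35.1 to 37.9 CPM (-0.57 ± 0.06). Axin2, a feedback target of beta-catenin, gave 137 and 138 CPM against 128 to 141 CPM (adjusted p = 0.439). With sg1 alone it was called lower (-0.11), and with sg2 alone it stood at 0.01 without a call.

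Of 21 Notch pathway genes 10 were lower and 1 higher (4 lower without sgNeg2 replicate 1). Notch1 went from 76.4 and 76.4 CPM to 52.8 to 60.4 CPM (log2 -0.42 ± 0.05), and its ligand Jag1 from 72.7 and 73.2 CPM to 54.8 to 61.9 CPM (-0.34 ± 0.05). Of 31 immediate early genes 10 were lower (32.3%) and 6 higher (19.4%), against 18.3% and 14.5% of all genes. For the other lists of this paragraph, shares lower and higher were 47.6% and 4.76% for Notch and 28% and 12% for YAP and TEAD targets. For semaphorins, plexins and neuropilins they were 31.8% and 9.09%. Egr1 went from 213 and 204 CPM to 138 to 168 CPM (-0.45 ± 0.09), and Klf4 from 49.8 and 47.7 CPM to 65.1 to 74.1 CPM (0.53 ± 0.06). Of 25 YAP and TEAD targets 7 were lower and 3 higher (3 lower without sgNeg2 replicate 1, 1 higher without sgNeg2 replicate 2), and the factor Tead1 fell by 0.45 ± 0.05. Of 22 semaphorin, plexin and neuropilin genes 7 were lower and 2 higher (4 lower without sgNeg2 replicate 1), and Nrp2 fell by 0.31 ± 0.04.

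Matrix genes were also called in both directions. Of 26 integrins and laminins 10 were lower and 3 higher, of 37 matricellular and proteoglycan genes 10 were lower and 10 higher, and of 32 collagens and assembly genes 5 were lower and 3 higher. Integrins and laminins were at 38.5% lower and 11.5% higher, and matricellular and proteoglycan genes at 27.0% each way. The collagen shares, 15.6% lower and 9.38% higher, were below those of all genes, 18.3% and 14.5%. Fibronectin, Fn1, went from 9672 and 9578 CPM to 6569 to 6758 CPM (log2 -0.53 ± 0.03, adjusted p = 1.97e-11). The basement membrane genes Hspg2 (perlecan) and Lamb2 changed by -0.63 ± 0.04 and -0.60 ± 0.04. Thrombospondins moved apart: Thbs1 fell by 0.47 ± 0.04 and Thbs2 rose, from 7.66 and 8.62 CPM to between 16.7 and 19.99 CPM. The collagen list had 2 members called lower without sgNeg2 replicate 2, and 3 without sg1 replicate 1 or sg2 replicate 2.

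Of 33 genes of the epithelial and mesenchymal switch 9 were higher and 5 lower, with 5 higher without sgNeg2 replicate 2. Cdh17, a liver and intestine cadherin, went from 706 and 724 CPM to 485 to 504 CPM (log2 -0.54 ± 0.03). Grhl2, an epithelial factor, went from 4.19 and 3.68 CPM to 6.38 to 8.17 CPM (0.84 ± 0.15), and S100a4, a marker of motile cells, from 9.19 and 10.6 CPM to 15.8 to 18.3 CPM (0.77 ± 0.10). For the switch genes the shares were 27.3% higher and 15.2% lower, against 14.5% and 18.3% of all genes. Of 18 tubulin and neuronal cytoskeleton genes 5 were higher (27.8%) and 3 lower (16.7%). Without either sgNeg2 library 3 were higher and 1 lower, and without sg1 replicate 1 or sg2 replicate 1, 3 were higher.

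Replication, mitosis, repair and p53 genes were called at shares near or below those of all genes, 14.5% higher and 18.3% lower. Called higher and lower were 14.6% and 18.8% of replication genes and 9.52% and 16.7% of mitosis genes. For repair genes the shares were 3.39% and 13.6%, and for p53 targets 15.6% and 18.8%. Of 48 replication genes 7 were higher and 9 lower, of 42 mitosis genes 4 were higher and 7 lower, of 59 repair genes 2 were higher and 8 lower, and of 32 p53 targets and CDK inhibitors 5 were higher and 6 lower. Mki67, the proliferation antigen, went from 152 and 159 CPM to 116 to 129 CPM (log2 -0.35 ± 0.04, adjusted p = 2.2e-06), and Cdc6, which loads the replicative helicase, from 31.2 and 30.9 CPM to 22.8 to 24.01 CPM (-0.41 ± 0.07). Pcna, the replication clamp, rose from 88.2 and 84.7 CPM to between 97.0 and 106 CPM. Myc gave 108 and 105 CPM against 104 to 113 CPM (adjusted p = 0.544). The rise of Cdkn1a, p21, by 0.11 was not called without either sgNeg2 library or either sg1 library. Of 41 listed replication-dependent histones 13 were tested and 5 were higher, none lower. Hist1h1c went from 29.1 and 26.9 CPM to 43.7 and 44.8 CPM with sg1 and 35.1 and 36.2 CPM with sg2. With sgNeg2 replicate 1 left out the counts fell to 4 lower replication genes, 1 higher and 3 lower mitosis genes, and 2 higher and 3 lower p53 targets. Without sgNeg2 replicate 2, the mitosis counts were 1 and 4, repair genes called lower 5 and p53 targets called higher 3. With sg1 replicate 2 left out 12 mitosis genes were called lower, and with sg2 replicate 1 left out 8 histones were higher.

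Few genes were called between the guides, with 2 libraries each. In the edgeR test of sg2 against sg1, 1779 genes had an unadjusted p below 0.05, before the adjustment used for the calls below. Between sg2 and sg1, 348 of 12493 genes differed (2.79%), 142 higher with sg2 (1.14%) and 206 lower (1.65%), of which 8 differed by at least 1.5-fold. The number fell to 134 without sg1 replicate 1, 116 without sg1 replicate 2, 170 without sg2 replicate 1 and 129 without sg2 replicate 2. Hp, haptoglobin, stood at 114 and 113 CPM with sg1 and 161 and 168 CPM with sg2, below 193 and 191 CPM with sgNeg2 (sg2 minus sg1 0.54, adjusted p = 5.22e-12). Aqp8, a water channel of hepatocytes, gave 11.4 and 11.4 CPM with sg1 and 17.5 and 17.7 CPM with sg2 against 7.19 and 7.13 CPM with sgNeg2. Fabp4, Fgg and Gtf2e1 were also higher with sg2, by 0.67, 0.60 and 0.53.

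In the other direction, Itgb7, an integrin chain of lymphocytes, gave 38.1 and 42.0 CPM with sg1, 25.1 and 28.7 CPM with sg2 and 20.9 and 20.5 CPM with sgNeg2 (sg2 minus sg1 -0.58, adjusted p = 2.79e-05). Pdcd4, a translation inhibitor, gave 27.1 and 25.3 CPM with sg1, where sg2 gave 19.9 and 17.8 CPM and sgNeg2 19.1 and 20.2 CPM. Itpka, Nova2 and Cys1 differed by -0.70, -0.62 and -0.51. Cyr61, a YAP target outside the rule for named genes and chosen after its values were seen, moved to opposite sides of sgNeg2. It gave 209.8 and 209 CPM with sgNeg2, 227 and 232 CPM with sg1 and 185 and 185 CPM with sg2. Of the genes that differed between guides, 167 were also called in the knockout, Cxcl5 (0.30) and Igfbp1 (0.35) among them.

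The same editing in 2 other mouse lines, Hep53.4 (mouse hepatoma) and LLC (Lewis lung carcinoma), allowed the size of each change to be compared in a joint fit of 18 libraries. The change in Hepa1-6 differed from that in Hep53.4 in 3506 of 14195 genes (24.7%) and from that in LLC in 3493 (24.6%). In this fit 30.3% of genes were called in Hepa1-6 itself. Both comparisons use the same Hepa1-6 libraries. Dot1l itself fell further in Hepa1-6, with a difference of -0.83 ± 0.13 from Hep53.4 and -0.49 ± 0.12 from LLC (adjusted p = 7.27e-06 and 0.00246). The genes of large change in Hepa1-6 were often near 0 in the other lines: of 30, 16 reached 1 CPM in Hep53.4 and 10 in LLC. Wif1 had no count in either.

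Trib2 rose in Hepa1-6 and gave 64.5 and 60.7 CPM in LLC, control against knockout, where its change was -0.09 ± 0.08. Cxcl5 went the opposite way in Hep53.4, from 24.6 to 18.4 CPM (-0.42 ± 0.09), with a difference between the lines of 1.53 ± 0.13 (adjusted p = 1.44e-10). Cyp1a1 gave 50.3 and 47.6 CPM in Hep53.4 (-0.08 ± 0.06), and Tmem245 gave 73.8 and 80.4 CPM there and 35.9 and 37.95 CPM in LLC, with differences of -1.05 ± 0.16 and -1.01 ± 0.17. In that fit Ern1 fell in all 3 lines, by 0.96 in Hepa1-6, 0.56 in Hep53.4 and 0.63 in LLC, and most in Hepa1-6 (differences -0.40 and -0.33, adjusted p = 0.000849 and 0.00634). Tnr, a tenascin gene, rose in LLC from 1.88 to 5.40 CPM.

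**Figure D5:**
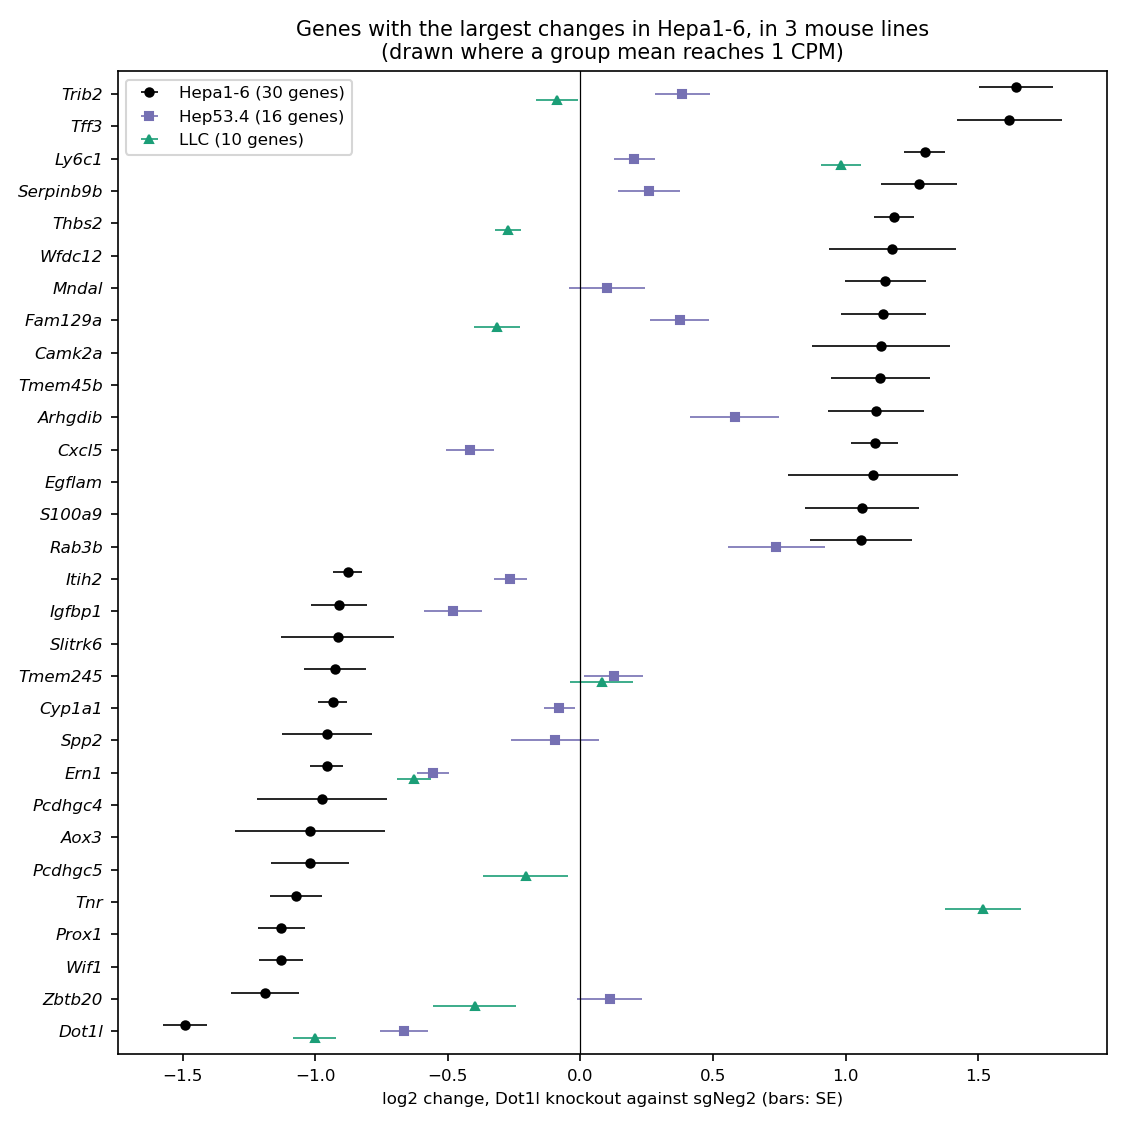
Log2 change in Dot1l knockout with its SE for the 15 largest rises and 15 largest falls of Hepa1-6 (rows), in Hepa1-6 (circles), Hep53.4 (squares, 16 genes) and LLC (triangles, 10 genes), drawn where a group mean reached 1 CPM. Dot1l lies left of 0 in all 3 lines, and Cxcl5 lies on opposite sides of 0 in Hepa1-6 and Hep53.4.

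Several gene groups separated Hepa1-6 from 1 or both of the other lines, in counts of members whose change differed. Of 76 ribosomal protein genes 66 were above LLC and none below, with medians of 0.12 in Hepa1-6 and -0.19 in LLC, against 9.28% above and 15.3% below over all genes. Of 76 oxidative phosphorylation genes 44 were above LLC and 1 below (26 above without sgNeg2 replicate 1), while 9 were above Hep53.4 (4 without sgNeg2 replicate 1, 17 without sgNeg2 replicate 2) and 12 below. Of 30 folding genes 19, and of 31 NRF2 genes 18, were below Hep53.4, where 14.5% of all genes were below and 10.2% above, and no member of either list was above. Of 71 conjugating and reducing enzymes 27 were below Hep53.4 and 3 above. Of 42 ATF4 targets 24 were above Hep53.4 and 20 above LLC. Mitosis genes were below in both comparisons, 21 and 22 of 42, with medians of -0.07 in Hepa1-6, 0.16 in Hep53.4 and 0.22 in LLC. Of 41 histone methyltransferases and demethylases 23 were below LLC and 15 below Hep53.4.

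Markers of other cell types were checked beside these results. Summed levels of 12 hepatocyte markers were 22861 and 22898 CPM with sgNeg2 and 15457 to 15901 CPM in knockout. Sums of 10 cholangiocyte markers were 2619 and 2622 CPM against 2772 to 2828 CPM, and sums of 18 leukocyte markers 80.8 and 87.6 CPM against 74.9 to 86.7 CPM, with Cd3e, Nkg7 and Gzmb at 0. Cd68 made up most of the leukocyte sum (77.5 and 72.7 CPM against 63.0 to 73.7 CPM, not called), while Itgam rose, from 3.22 and 2.56 CPM to between 4.02 and 5.82 CPM, and 3 of the 4 tested leukocyte markers had positive changes (median 0.55). Sums of 12 endothelial markers were 33.7 and 37.8 CPM against 24.6 to 26.5 CPM, with Tek, Clec4g and Erg at 0. Stab1 made up most of the endothelial sum and fell, from 30.9 and 35.0 CPM to between 20.8 and 22.2 CPM, while Vwf rose, from 1.89 and 1.34 CPM to between 2.33 and 2.79 CPM, and 3 of 4 tested had positive changes (median 0.56). The call of Itgam was lost without sgNeg2 replicate 2 (0.61), and that of Vwf without any 1 of sgNeg2 replicate 2 (0.41), sg1 replicate 1, sg2 replicate 1 or sg2 replicate 2 (0.58 to 0.64). Cd68 was called lower without either sg1 library (-0.16). These 4 genes were chosen after their values were seen. The sums of 12 lung epithelial markers were 8.56 and 9.03 CPM against 9.58 to 12.1 CPM, with Sftpa1 and Scgb3a2 at 0. Sums of 12 fibroblast markers were 459 and 481 CPM against 381 to 408 CPM, with Lrat at 0. Within the last list the library sgNeg2 replicate 2 stood apart: it held 2.66 CPM of Col1a2, 2.90 CPM of Col3a1 and 2.04 CPM of Postn, where the other libraries held 0.351 to 0.838, 0.395 to 0.539 and 0.132 to 0.566 CPM. These 3 genes were called lower in knockout, but not without that library, where the list had 1 member called lower in place of 5. Col1a2 also lost its call without sg1 replicate 1 or either sg2 library (-1.37 to -1.56). Without either sgNeg2 library 4 hepatocyte markers were called lower, in place of 7 of 10 tested. The part of these markers in the results above was not tested.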

How the data were processed

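RNA sequencing counts of 6 Hepa1-6 libraries were analysed, with the 12 libraries of Hep53.4 and LLC for the comparison between lines. The 18 HuH-7 libraries were not used here. The deposited values are whole counts per gene symbol, made by the authors without a stated normalization. HISAT2 2.2.1 and SAMtools 1.9, with Trim Galore, DESeq2 1.36.0 and the build mm10, are listed in the submitters' processing notes. The sources used here give no counter, annotation or strand setting. In each Hepa1-6 sgNeg2 file 1721 lines with neither symbol nor count were dropped.

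The tests used edgeR 4.0.16 under R 4.3.3, with filterByExpr (minimum count 10, minimum total 15), TMM scaling, robust quasi-likelihood F tests and Benjamini-Hochberg adjustment over all genes tested, with calls at 0.05. Both guides were pooled as knockout (12493 genes); guides were compared in a fit with 3 groups; line differences came from a joint fit of 18 libraries (14195 genes). SE is the log2 change divided by the root of F. The members and the 51 gene lists were chosen with earlier results of these data known. Named genes were Dot1l, the 15 largest called rises and falls reaching 5 CPM in the higher group without overlap between groups, up to 4 called members per list plus the one with most counts, and the 5 largest guide differences each way; other named list members were chosen after their values were seen. Groups and replicate numbers came from the labels. Alternatives were RLE scaling, no filter, DESeq2 1.42.0, each guide alone, guides as groups, the joint fit, a replicate block and leaving out each Hepa1-6 library. The fits were tested on simulated data with 50 genes changed per fold size. Calls at 1.25- and 1.5-fold were made for 56 and 86% of them in the simulated knockout (12493 genes, 7.18% of calls false), 52 and 86% between guides (6.74% false), 48 and 80% for Hepa1-6 minus Hep53.4 (14195 genes, 3.01% false) and 48 and 68% for Hepa1-6 minus LLC (3.7% false).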

Additional observations from a re-analysis of the deposited data

Results flagged for a closer look

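Single libraries stood apart from the other 3 knockout libraries in 9 of the 173 named genes tested (5.2%, where chance alone gives about 1 in 20). Rn45s and Rmrp reached 22401 and 89.0 CPM in sg1 replicate 2, against 2907 to 3686 and 0.203 to 1.06 CPM in the others. Cebpb stood at 107 CPM in sg1 replicate 1 against 46.8 to 51.9 CPM, and a control library was as high. Cd274 gave 3.39 CPM in sg1 replicate 2 against 4.43 to 4.62 CPM, and Znfx1 gave 115.7 CPM in sg1 replicate 1 against 123 CPM. In sg2 replicate 2, Gm9920 had no count (0 CPM), Lamb2 gave 209.7 CPM against 226 to 229 CPM and Tmem45b 12.8 CPM against 11.8 to 11.98 CPM. Trim25 gave 258 CPM in sg2 replicate 1 against 249 to 250.1 CPM.

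Of the 30 genes of largest change, only the 16 that reached 1 CPM in Hep53.4 were compared with that line. Of these 16, 13 responded differently in Hepa1-6 and Hep53.4 by the test of the difference itself. The 30 were picked for their large change in Hepa1-6, which favours a difference. The Hepa1-6 change lay above that of Hep53.4 by 1.26 on the log2 scale for Trib2, 1.09 for Ly6c1, 1.02 for Serpinb9b, 0.77 for Fam129a, 1.05 for Mndal and 1.53 for Cxcl5. It lay below with a difference of -0.83 for Dot1l, -1.30 for Zbtb20, -0.40 for Ern1, -0.86 for Spp2, -0.85 for Cyp1a1, -1.05 for Tmem245 and -0.61 for Itih2.

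Against LLC, only the 10 genes that reached 1 CPM there were compared, and all 10 differed. The Hepa1-6 change was above that of LLC by 1.73 for Trib2, 0.31 for Ly6c1, 1.46 for Thbs2 and 1.46 for Fam129a. It was below with differences of -0.49 for Dot1l, -0.79 for Zbtb20, -2.59 for Tnr, -0.81 for Pcdhgc5, -0.33 for Ern1 and -1.01 for Tmem245. Dot1l itself was reduced to different degrees in the lines, and the part of this in the other differences was not tested.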

How the results depend on the processing

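The number of genes called in the knockout, 4095, stayed between 3865 and 4741 under RLE scaling, no filter on low counts, DESeq2, each guide alone, guides as groups, the joint fit of 3 mouse lines and the replicate block, and 216 were also changed at least 2-fold. Leaving out 1 library gave 2381 (sgNeg2 replicate 1) to 3976 genes. With 1 control library left, that sample was assumed to vary like the knockout libraries. Over the 51 lists 643 members were called, and 402 to 631 with 1 library left out. Between guides, 348 genes became 116 to 435 with 1 library left out, with the lowest count without sg1 replicate 2, and 503 with no filter. Differences from Hep53.4 numbered 2701 to 3542, and from LLC 2608 to 3430, with 1 Hepa1-6 library left out. Libraries of the other lines were not left out. Dot1l was called under each alternative, at -1.41 to -1.55.

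Col1a2 ranged from -2.28 without sgNeg2 replicate 1 to 0.065 without sgNeg2 replicate 2, and Cyr61 turned to 0.13 with sg1 alone. The cause was not tested for either. The median change over all genes moved by under 0.1 in each scaling. Same-numbered libraries correlated weakly in their deviations, at 0.149, 0.0923 and 0.0850, and the main fit did not pair them. With the replicate block 3931 genes were called in the knockout and 351 between guides.

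Many calls were lost when either of the 2 control libraries was left out. Whether knockout cells were clones is not given in the sources used here, and genes below about 1 CPM rest on few counts.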
